A study of Rattus norvegicus with 8 samples.

Results

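Transcripts of 10 genes of mitochondrial fatty acid oxidation were examined in the whole blood of male Wistar rats, among 14217 genes with a named probe set on an Affymetrix rat expression array. The members were Slc25a20, Cpt1a, Cpt2, Acadvl, Acadm, Echs1, Hadha, Hadhb, Acaa2 and Acot2. They were taken by name, with earlier results of these data known. Every probe set that the platform annotation assigned to only 1 of these symbols was kept, which gave 16 of the 31042 tested probe sets. Rats that had arrived at 7 weeks of age ate a high-fat diet (Quick fat) containing 1% mulberry leaf powder (4 arrays) or the high-fat diet alone (4 arrays) for 8 weeks, so both groups shared the fat load. Blood was drawn on day 56 after a night without food. Each diet group comprised 10 rats, and the labels call the arrays biological replicates without saying whether an array carries 1 animal or several, so each p-value rests on array-to-array spread, which may be partly technical. A normal-diet group of the design was not analysed here. The comparison asks what mulberry leaf in the diet does to blood transcripts, here those of the enzymes that burn fat.

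Long-chain fatty acids enter mitochondria through the carnitine shuttle. CPT1 on the outer membrane joins the acyl group to carnitine, the carrier encoded by Slc25a20 moves acylcarnitine across the inner membrane, and CPT2 returns the acyl group to coenzyme A. Acyl-CoA dehydrogenases, a hydratase, a hydroxyacyl-CoA dehydrogenase and a thiolase then shorten the chain in repeated rounds, each of which releases acetyl-CoA. Fasting and dietary fat are known to induce many of these genes through PPAR-alpha, chiefly in liver, heart and muscle. Mature red cells, the most numerous cells of blood, lack mitochondria. These transcripts in whole blood can come from several cell types, among them reticulocytes, leukocytes and platelets, in proportions that the arrays do not resolve.

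Promoter sequences are shown for the genes on which the results turn. RefSeq (assembly GRCr8) gave a promoter window for 9 of the 10 members. Slc25a20 and Echs1 are shown because they stood furthest apart in direction among the genes with a single probe set, and the Hadha and Hadhb stretch because these neighbours are transcribed away from each other and their windows share 200 bases, with 300 bases between the annotated starts. The first pair of sequences are the 250 bases before the start on the gene's own strand, and the shared stretch reads 5′ to 3′ on the plus strand. They lie at chr8:118243323-118243572 (plus strand, Slc25a20), chr1:204333507-204333756 (minus strand, Echs1) and chr6:31907551-31907750 (plus strand, Hadha and Hadhb). Capitals mark the letters GGGCGG (the GC box, which Sp1 family factors bind) and AGGTCA (the core motif of nuclear receptors such as PPAR-alpha), each searched on both strands.
Slc25a20: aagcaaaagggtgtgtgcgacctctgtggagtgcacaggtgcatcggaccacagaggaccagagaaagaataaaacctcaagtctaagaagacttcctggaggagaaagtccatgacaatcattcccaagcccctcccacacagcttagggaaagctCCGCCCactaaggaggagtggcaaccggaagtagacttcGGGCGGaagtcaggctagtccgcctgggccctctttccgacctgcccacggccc
Echs1: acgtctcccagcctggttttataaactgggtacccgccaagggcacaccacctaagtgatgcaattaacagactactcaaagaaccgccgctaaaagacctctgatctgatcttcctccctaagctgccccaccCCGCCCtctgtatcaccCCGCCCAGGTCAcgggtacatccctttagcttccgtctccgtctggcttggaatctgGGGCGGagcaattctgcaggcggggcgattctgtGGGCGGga
Hadha and Hadhb: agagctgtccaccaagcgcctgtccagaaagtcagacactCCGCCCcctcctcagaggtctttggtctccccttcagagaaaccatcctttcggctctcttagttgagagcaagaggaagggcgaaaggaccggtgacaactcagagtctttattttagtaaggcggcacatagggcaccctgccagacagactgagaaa
In Echs1 the single AGGTCA match directly followed a GC box match, with no shared letter. The upstream stretch held 4 GC box matches in Echs1, 2 in Slc25a20 and 1 in the shared Hadha and Hadhb stretch. Over windows of 300 bases, a GC box stood in 6 of 9 members and in 33.1% of 33469 RefSeq promoters, and AGGTCA stood in 3 of 9 members (Acadvl, Echs1 and Hadhb) and in 16.2% of all promoters. AGGTCA directly repeated after a spacer of a single base, the consensus of a PPAR response element, and TCAAGGTCA, the element of oestrogen-related receptors, each of which contains AGGTCA, stood in 0 of 9 members and in 0.0538% and 0.433% of all promoters. These are letter matches in a short window only.

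The deposited values are read as log2 probe set summaries, and they ran from 5.17 to 15.26. Their spread between arrays was very small, with a median SD of 5.31e-06 log2 units over the 8 arrays, so differences cannot be read as fold changes. Values are therefore given in SD units, the deviation of an array from the probe set's mean over the 8 arrays divided by that probe set's SD, and differences are mulberry minus high-fat. After another normalization or the omission of arrays, a difference is in SDs of the values then used. Its sign, but not its size, compares with the others. Except for Slc25a20, the member probe sets had an SD between 1.02e-06 and 2.77e-05 log2 units. Slc25a20 had an SD of 0.000304, above 98.5% of all tested probe sets. All 11 erythroid markers (6.82 to 15.09, the highest being the haemoglobin chain Hbb) and all 10 platelet markers (7.38 to 12.67) lay above the median of all probe sets (6.57). So did 9 of 10 monocyte, 11 of 12 T cell, 6 of 6 B cell and 8 of 11 natural killer markers. Neutrophil markers were mixed, with 5 of 9 above it (Lcn2 at 6.13 and S100a9 at 11.10), and eosinophil, mast cell and basophil markers were mostly low (2 of 8 above it). Of the liver and adipose genes, 2 of 6 lay above it, with a range of 6.14 to 6.68. The members averaged between 5.65 (an Acot2 probe set) and 8.31 (Slc25a20). Levels of different probe sets are not compared further.

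**Figure D1:**
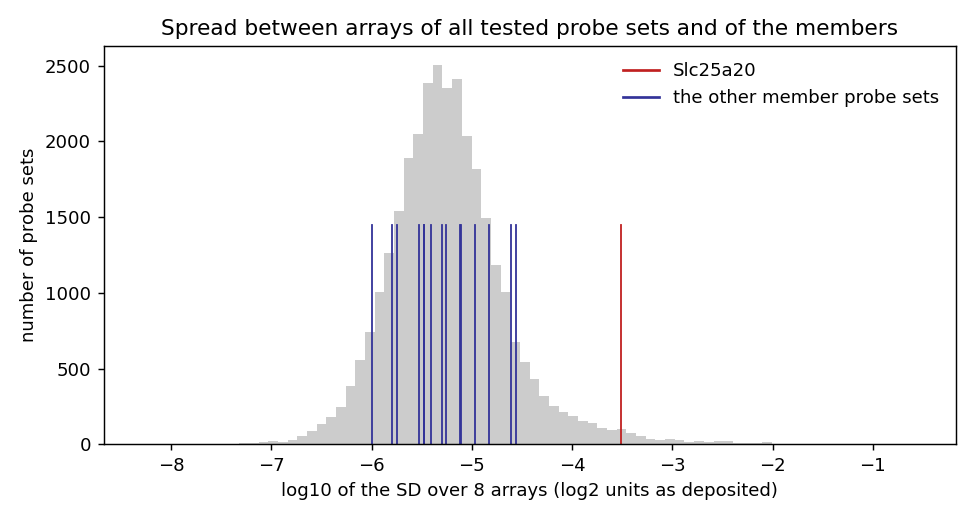
Histogram of the SD over the 8 arrays (log10 of log2 units as deposited) for all tested probe sets, with lines at the 16 member probe sets. Slc25a20 (0.000304 log2 units) lies to the right of the other members, which span 1.02e-06 to 2.77e-05.

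No member was called different between the diets. By limma with Benjamini-Hochberg adjustment over all probe sets, 0 of 16 member probe sets passed 0.05, and 0 of all tested probe sets passed (0%). At an unadjusted p under 0.05 there were 4 of 16 member probe sets, against 4.36% of all tested probe sets. Of these, 3 were lower with mulberry (Echs1, Acaa2 and Acot2; 1.61% of all probe sets) and 1 was higher (Slc25a20; 2.74% of all). The diets did not overlap in 2 of 16 member probe sets (Slc25a20 and 1 of Acot2), against 2.52% of all tested probe sets. Because the members were chosen with earlier results of these data known, these counts are not read as an excess over all probe sets. Values follow in the order of the pathway, with each limma test two-sided and each adjusted p equal to 1.

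**Figure D2:**
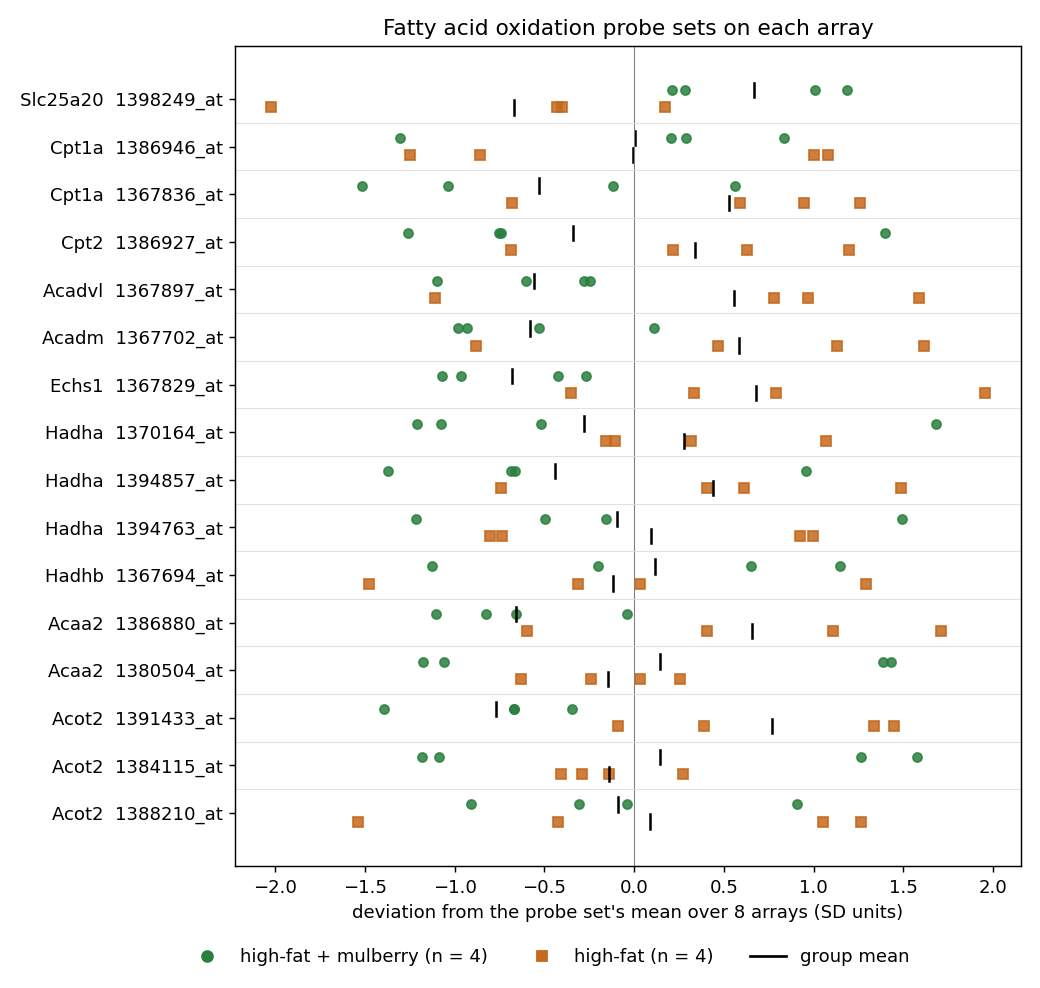
Deviation of each array from the probe set's mean (SD units) for the 16 member probe sets, 4 mulberry arrays (circles, upper) and 4 high-fat arrays (squares, lower), with group means as bars. Between the diets there is no overlap in Slc25a20, where mulberry is higher, and in the Acot2 probe set 1391433_at, where it is lower, and they overlap in the other 14.

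Genes of the carnitine shuttle lay on both sides of 0, and none passed the test. Slc25a20, which encodes the carnitine-acylcarnitine carrier, had 0.283, 0.209, 1.18 and 1.00 SD units in the mulberry arrays of replicates 1 to 4, against -2.02, 0.172, -0.402 and -0.427 in the high-fat arrays. All 4 mulberry arrays lay above all 4 high-fat arrays, as in 1.6% of all tested probe sets, but mulberry replicate 2 and high-fat replicate 2 were separated by a narrow gap and high-fat replicate 1 lay far below the rest. The means were 0.67 ± 0.496 in mulberry and -0.67 ± 0.943 in high-fat arrays (SD, n = 4 each). The limma difference was 1.34 ± 0.501 SD units (SE), with an unadjusted p of 0.0326. The two-sided exact permutation p was 0.0286, the smallest that 4 against 4 arrays allow. Leaving out high-fat replicate 1 gave 1.43 in SDs of the arrays then kept, a size that does not compare with 1.34. A fit that included the spiked hybridization controls gave 0.895.

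Cpt1a, the outer-membrane transferase of liver type that malonyl-CoA inhibits and that also serves leukocytes, had probe sets that disagreed. The probe set 1367836_at had -1.52, -0.116, 0.56 and -1.04 SD units in the mulberry arrays, against 0.589, -0.683, 0.948 and 1.26 in the high-fat arrays. The groups overlapped through mulberry replicate 3 and high-fat replicate 2, and the limma difference was -1.06 ± 0.625 (SE). The brighter probe set 1386946_at had a difference of 0.0103 ± 0.973, and over the 8 arrays the Pearson correlation between the pair was 0.0441 (two-sided exact permutation p = 0.915). Cpt2, the inner-membrane transferase, had -0.751, -1.26, 1.4 and -0.743 in the mulberry arrays, against 0.217, -0.685, 0.629 and 1.19 in the high-fat arrays. Mulberry replicate 3 was the highest of all 8 arrays while the other mulberry arrays were the lowest, so the difference of -0.678 ± 0.674 (SE) was about the size of its error.

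The acyl-CoA dehydrogenases had lower means with mulberry, and neither passed the test. Acadvl, which encodes the dehydrogenase for very long chains, had -1.10, -0.60, -0.28 and -0.245 SD units in the mulberry arrays, against 0.967, 1.59, -1.11 and 0.779 in the high-fat arrays. Of the high-fat arrays, replicates 1, 2 and 4 lay above every mulberry array, and high-fat replicate 3 lay just below them all. Limma gave a difference of -1.11 ± 0.612 (SE, unadjusted p = 0.113). Acadm, which encodes the medium-chain enzyme and is the gene affected in the most common inherited disorder of fatty acid oxidation in humans, had 0.111, -0.983, -0.929 and -0.53 in the mulberry arrays, against 0.467, 1.13, -0.88 and 1.61 in the high-fat arrays. High-fat replicate 3 again lay among the mulberry arrays. Its limma difference was -1.17 ± 0.673 (SE, unadjusted p = 0.128).

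Echs1, the short-chain enoyl-CoA hydratase of the second step, had -1.07, -0.266, -0.423 and -0.964 SD units in the mulberry arrays, against 0.79, 0.333, -0.353 and 1.95 in the high-fat arrays. Only high-fat replicate 3 reached into the mulberry range, below mulberry replicate 2. The means were -0.681 ± 0.396 in mulberry and 0.681 ± 0.97 in high-fat arrays (SD, n = 4 each). By limma the difference was -1.36 ± 0.507 (SE, unadjusted p = 0.0321), and the two-sided exact permutation p was 0.0571. Including the hybridization controls gave -0.858, quantile normalization gave -0.388, and median centring turned the difference to 0.995.

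The trifunctional protein, which carries out the last steps for long chains, has an alpha subunit encoded by Hadha and a beta subunit encoded by Hadhb. The brightest Hadha probe set (1370164_at) had -1.07, -1.21, -0.518 and 1.68 SD units in the mulberry arrays, against -0.158, 1.07, 0.317 and -0.108 in the high-fat arrays. Mulberry replicate 4 was the highest of all 8 arrays and the other mulberry arrays the lowest, and the limma difference was -0.56 ± 0.69 (SE). The other Hadha probe sets differed by -0.88 ± 0.647 (1394857_at) and -0.189 ± 0.735 (1394763_at). Hadhb had 0.649, -1.13, -0.201 and 1.14 in the mulberry arrays, against -1.48, 1.29, -0.315 and 0.0347 in the high-fat arrays. Its groups overlapped over almost their whole range, with a difference of 0.233 ± 0.713 (SE).

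Acaa2, the mitochondrial 3-ketoacyl-CoA thiolase that releases acetyl-CoA, had -0.823, -1.10, -0.0417 and -0.659 SD units in the mulberry arrays on its brighter probe set (1386880_at), against 1.11, 0.406, -0.595 and 1.71 in the high-fat arrays. High-fat replicate 3 was the only high-fat array inside the mulberry range, as in Echs1. The limma difference was -1.31 ± 0.512 (SE, unadjusted p = 0.038), and the two-sided exact permutation p was 0.0571. It was -0.684 with the hybridization controls included and -0.065 after median centring. The dimmer probe set (1380504_at) differed by 0.291 ± 0.711 (SE), with mulberry replicates 2 and 3 high and replicates 1 and 4 low.

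Acot2 encodes a mitochondrial thioesterase that splits long-chain acyl-CoA back into free fatty acid and coenzyme A. In SD units, its brightest probe set (1391433_at) had the largest difference of the 16 in either direction. The SD of this probe set was only 1.61e-06 log2 units, above 14.5% of all tested probe sets. As deposited, its difference was -2.48e-06 log2 units, against 0.000407 for Slc25a20. This probe set had -0.347, -1.39, -0.669 and -0.671 SD units in the mulberry arrays, against -0.0921, 1.45, 1.34 and 0.387 in the high-fat arrays. Every mulberry array was lower than every high-fat array, as in 0.915% of all tested probe sets. Limma put the difference at -1.54 ± 0.582 (SE, unadjusted p = 0.0341), with a two-sided exact permutation p of 0.0286, the smallest possible. It turned to 0.303 after quantile normalization and to 1.12 after median centring. With another variance model in limma (trend and robust), the unadjusted p was 0.0741. The other Acot2 probe sets differed by 0.285 ± 0.744 (1384115_at) and -0.177 ± 0.717 (1388210_at). A further probe set that names Acot1 as well as Acot2 was left out by the rule, and since these paralogs are closely related the probe sets kept may also detect both.

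**Figure D3:**
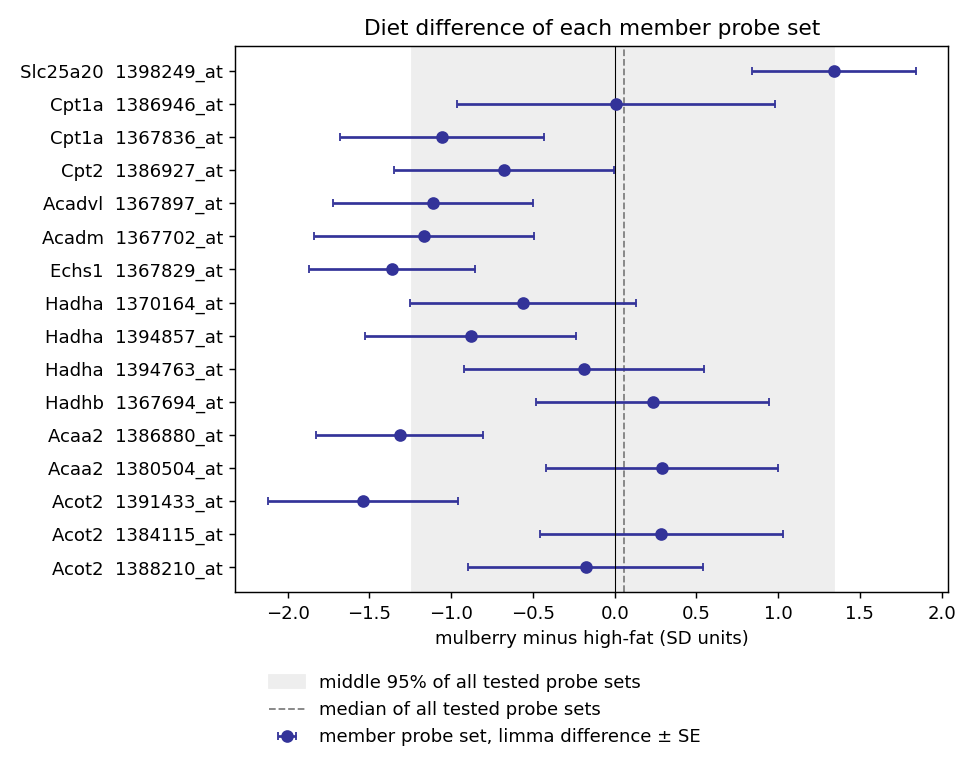
Limma difference, mulberry minus high-fat, with its SE (SD units) for each member probe set, beside the middle 95% (-1.24 to 1.34) and the median (0.056) of all tested probe sets. Of the 16, 11 lie below 0 on the deposited values, and 1 does after median centring.

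As a family, 11 of the 16 member probe sets had lower means with mulberry, against 47.3% of all tested probe sets, and median centring of the arrays left 1 of 16 lower, when 3.07% of all probe sets were lower. The median difference was -0.619 SD units over the member probe sets and 0.056 over all tested probe sets. With the brightest probe set of each gene, 7 of 10 members were lower, against 50.9% of all genes, with medians of -0.895 and -0.019. These shares and medians are descriptive only, since the members were chosen with earlier results of these data known. Array medians differed by up to 9.36e-05 log2 units, several times the SD of most members, so centring on them shifts nearly all probe sets together. The 5 probe sets with higher means were those of Slc25a20 and Hadhb and 1 each of Cpt1a, Acaa2 and Acot2. Among genes with several probe sets, the probe sets of one and the same gene did not follow each other over the arrays: the 8 within-gene correlations ranged from -0.517 to 0.162, with a median of 0.0203, and the smallest exact permutation p of these Pearson correlations was 0.175. In whole blood, fewer cells of a type and less RNA per cell cannot be told apart.

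The SD was smaller among the mulberry arrays in 9 of 16 member probe sets and smaller among the high-fat arrays in 7. High-fat replicate 4 was the highest of all 8 arrays for Acadm, Echs1, Acaa2 (1386880_at) and Cpt1a (1367836_at), and high-fat replicate 3 was the lowest high-fat array for Acadvl, Acadm, Echs1 and Acaa2 (1386880_at). Averaged over the 10 genes, with 1 probe set each, the mulberry arrays had -0.392, -0.745, 0.0353 and -0.129 SD units, against -0.106, 0.783, -0.262 and 0.814 in the high-fat arrays. High-fat replicates 2 and 4 were thus the high arrays, and the groups overlapped. The median of all tested probe sets lay between -0.0668 and 0.122 in the mulberry arrays and between -0.174 and 0.0299 in the high-fat arrays.

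Some members followed each other across arrays, although none of the 45 pairs passed after adjustment. Echs1 and Acaa2 had a Pearson r of 0.912 over 8 arrays (two-sided exact permutation p = 0.00211, adjusted over the 45 pairs 0.0949) and a Spearman rho of 0.738 (exact p = 0.0458, adjusted 0.516). Without high-fat replicates 1 and 4, the arrays farthest from the Echs1 median, r was 0.626. Within the mulberry arrays r was 0.072 and within the high-fat arrays 0.961, so the relation rests on the high-fat arrays. Hadha and Hadhb, the neighbours with the shared promoter stretch printed above, had an r of 0.601 (exact permutation p = 0.118, adjusted 0.599) and a rho of 0.548 (exact p = 0.171, adjusted 0.592). Without mulberry replicate 4 and high-fat replicate 2, the arrays farthest from the Hadha median, r was -0.0935, so it depended on that pair together. Without mulberry replicate 4 alone it was 0.441, and without high-fat replicate 2 alone 0.489. Within the mulberry arrays r was 0.704 and within the high-fat arrays 0.846. The median r over the 45 pairs was 0.266, and 33 of them were above 0.

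**Figure D4:**
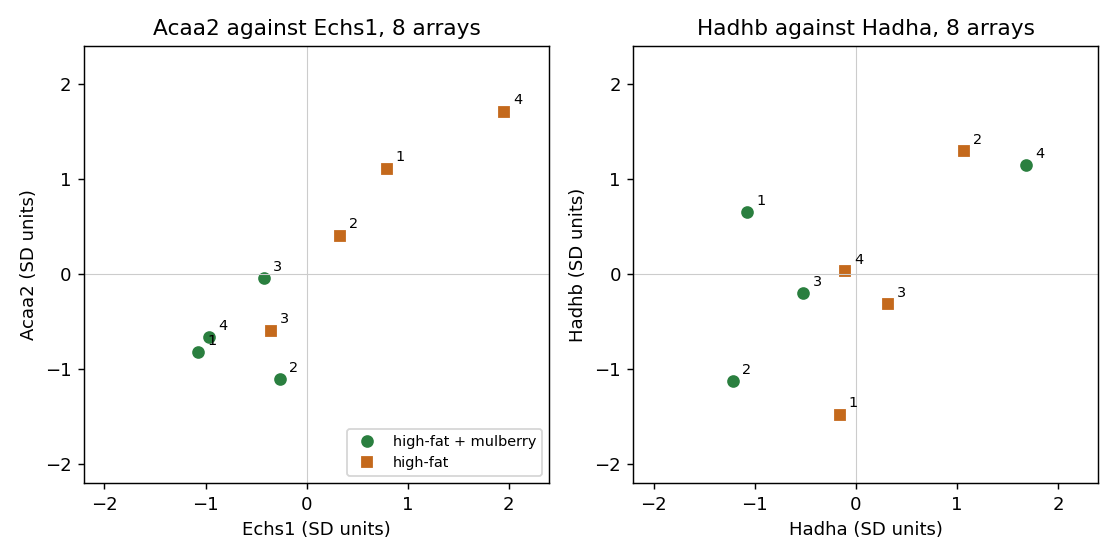
Acaa2 against Echs1 and Hadhb against Hadha on each of 8 arrays (SD units, brightest probe set per gene), mulberry as circles and high-fat as squares, with replicate numbers. High-fat replicates 4 and 1 lead the first relation (r = 0.912), and mulberry replicate 4 and high-fat replicate 2 the second (r = 0.601).

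Among all other genes, the profiles most like Echs1 by Pearson r over the 8 arrays were Srbd1 (0.973), Klrc1, a killer lectin-like receptor gene (0.968), and Vip (0.934). Those most like Slc25a20 were RragB (0.957), Ugt2b (0.955) and Ano5 (0.952). With 8 arrays and 14216 genes searched, 20 and 23 genes reached 0.9, so these are descriptions of likeness only.

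The other genes of fatty acid handling gave no call. Of 81 matched genes in 7 lists, 0 passed limma's adjusted threshold (0% of all genes), and 0 had an unadjusted p under 0.05, against 4.15% of all genes. Lower means with mulberry stood in 46 of 81, against 50.9% of all genes, in 34 of 81 after quantile normalization, in 4 of 81 after median centring and in 37 of 81 without mulberry replicate 1. The other enzymes of mitochondrial beta-oxidation had lower means in 13 of 19 and a median difference of -0.679 SD units, against -0.019 over all genes. The median was -0.198 for fatty acid uptake and activation (9 of 13 lower) and -0.276 for peroxisomal beta-oxidation (5 of 8 lower). It was -0.00267 for the carnitine shuttle and its regulators (4 of 8 lower) and 0.0817 for other acyl-CoA thioesterases (4 of 9 lower). PPAR factors and their other targets had a median of 0.108 (10 of 20 lower) and ketone body metabolism 0.352 (1 of 4 lower). The lists too were chosen with earlier results of these data known.

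Of these 81 genes, Cd36, the fatty acid translocase found on platelets and monocytes, had the smallest unadjusted p. It had -0.514, -1.02, -0.552 and -0.425 SD units in the mulberry arrays, against 2.27, 0.178, 0.093 and -0.0266 in the high-fat arrays. The groups did not overlap, which held for 1 of the 81 genes and for 2.52% of all tested probe sets. High-fat replicate 1 stood far above the others. The limma difference was -1.26 ± 0.531 (SE, unadjusted p = 0.0509, adjusted p = 1). Differences with SE were 1.24 ± 0.554 for Acad10, an acyl-CoA dehydrogenase family gene, and -1.17 ± 0.566 for Pccb, a subunit of propionyl-CoA carboxylase. They were -1.17 ± 0.59 for Acaca, whose product makes malonyl-CoA, the inhibitor of CPT1, and -1.12 ± 0.579 for the peroxisomal reductase gene Pecr. Fabp3, a fatty acid binding protein gene, differed by 1.11 ± 0.583. None of these genes passed the test.

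**Figure D5:**
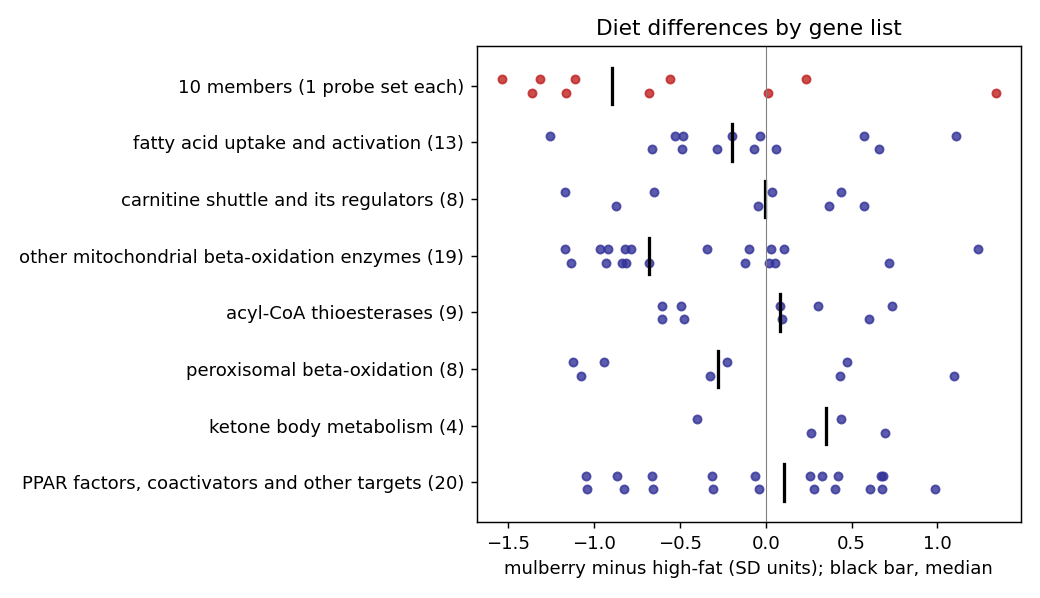
Limma differences, mulberry minus high-fat (SD units), for the 10 members (1 probe set each) and for 81 other genes in 7 lists, 1 point per gene, with list medians as bars. The medians of the members (-0.895) and of the other mitochondrial enzymes (-0.679) lie lowest on the deposited values. After median centring nearly all probe sets are higher.

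Blood cell markers varied on the same arrays. Natural killer markers had lower means in 10 of 11 genes, with an average from -0.591 to -0.133 SD units over the mulberry arrays and from -0.451 to 1.84 over the high-fat arrays. High-fat replicate 4 was highest there, and it was also the highest monocyte array (9 of 10 markers lower with mulberry, range -1.11 to 0.463 in mulberry and -0.524 to 1.94 in high-fat arrays). Without that array the differences were -1.41 for Echs1 and -1.23 for Acaa2 (1386880_at), in SDs of the arrays then kept. Their direction stayed, but their size does not compare with that of the differences over all 8 arrays. Platelet markers had lower means in 0 of 10 genes, from -0.387 to 1.62 in mulberry and from -1.53 to 0.186 in high-fat arrays. With the platelet average in the model, 0 rather than 4 of 16 member probe sets had an unadjusted limma p under 0.05. Over all 31042 tested probe sets the count was 1284 rather than 1352. No direction of a member turned with it. Echs1 then differed by -0.954, Cpt2 by -0.229, Hadha (1370164_at) by -1.20 and Cpt1a (1386946_at) by 0.801. Erythroid markers had lower means in 8 of 11 genes, from -0.646 to 0.405 in mulberry and from -0.544 to 0.686 in high-fat arrays. All 6 B cell markers had lower means, from -0.898 to 0.513 in mulberry and from -0.794 to 1.23 in high-fat arrays. T cell markers were lower in 6 of 12, neutrophil markers in 3 of 9, eosinophil, mast cell and basophil markers in 2 of 8, and liver and adipose genes in 1 of 6. The 18 hybridization control probe sets, spiked in during the assay, averaged 0.558 ± 0.635 in mulberry and -0.558 ± 0.856 in high-fat arrays (SD, n = 4 each). The part of natural killer, monocyte and B cell markers in the members' differences was not tested.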

How the data were processed

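RNA of peripheral whole blood (200 ng per array, biotin-labelled) was measured on 8 Affymetrix arrays, 4 per diet, grouped by their titles. The deposited values are read as log2 probe set summaries from their range. How they were summarised and normalized is not given in the sources used here. No detection calls were used, and the number of arrays limits the precision. The table held 31099 probe sets, 57 of them manufacturer controls. Names came from the platform annotation (20826 probe sets with 1 gene, 436 with several, 9780 unnamed here), and 20758 matched RefSeq by gene number.

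Diet was the only term in a linear model of each probe set, fitted to the deposited values by lmFit and eBayes of limma 3.58.1 (R 4.3.3), with Benjamini-Hochberg adjustment over all 31042 and a threshold of 0.05. Estimates and SEs were divided by the probe set's SD over the arrays and values of that fit. This was the SD of the deposited values over the 8 arrays, except after a normalization or an omission. Python 3.11.15 with numpy 2.4.6 gave exact permutation tests over 70 assignments of arrays and 40320 pairings. Gene lists used the probe set of highest mean per gene, and 81 of 90 pathway symbols and 83 of 103 marker symbols matched.

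Named were all members, the 6 other pathway genes of smallest unadjusted p, and the 3 genes most correlated with Echs1 and with Slc25a20. Members and lists were chosen with earlier results of these data known. Alternatives were 2 other normalizations (quantile and median centring), the brighter probe sets alone, the replicate number as a block, another variance model, 3 covariates and the omission of each array. Leaving out the replicates 4 of both diets, and recounting the non-overlapping groups after each normalization, were added after seeing the data. The fit was tested on simulated data.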

Additional observations from a re-analysis of the deposited data

Results flagged for a closer look

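Cd36 in high-fat replicate 1 had 2.27 SD units, and its gap to the next high-fat array was 0.911 of the range of the 4 high-fat arrays, above the critical value of Dixon's criterion. It was the 1 such case in 44 groups of 4 arrays examined (16 member probe sets and 6 other pathway genes in each diet), and chance gives about 1 in 20.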

How the results depend on the processing

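No member probe set and none of the 81 other pathway genes was called under any alternative run, and the lowest adjusted p of a member was 0.162 (limma, median centring). Differences after a normalization or an omission are in SDs of the values then used, so their sizes do not compare with the main ones. Median centring turned 10 member probe sets, which then differed by 1.06 (Cpt1a 1367836_at), 0.977 (Cpt2), 1.08 (Acadvl), 1.15 (Acadm), 0.995 (Echs1), 1.10, 1.03 and 1.10 (Hadha 1370164_at, 1394857_at and 1394763_at), 1.12 and 1.05 (Acot2 1391433_at and 1388210_at). It left 1 of 16 members and 4 of 81 other genes lower. The array medians it subtracts differed by up to 9.36e-05 log2 units, more than the SD of most probe sets. Quantile normalization turned Cpt1a 1386946_at to -0.707, Acaa2 1380504_at to -0.104, Acot2 1391433_at to 0.303 and Acot2 1384115_at to -1.08. It left Cpt1a 1367836_at and Acot2 1388210_at with a difference of 0. All Hadha probe sets also stood at -0.707 and Hadhb at 0.707. A difference of exactly this size arises when a single array departs from the others and those are equal. The values of -0.707 and 0.707 are therefore not read as diet directions. Quantile normalization called 12 of all probe sets. Member probe sets without overlap between the diets numbered 2 on the deposited values (2.52% of all tested probe sets), 0 under quantile normalization and 1 under median centring. The share over all probe sets was not counted after either normalization, so nothing is read from these counts. The hybridization controls as a covariate turned Cpt1a 1386946_at to -0.641, Hadhb to -0.386 and Acot2 1384115_at to -0.372, and the erythroid average turned Cpt1a 1386946_at to -0.373. The cause was not tested in any of these. Among the brighter probe sets, 7 of the 10 member probe sets kept (not the 10 genes) were lower, fewer because fewer were kept. Leaving out each array in turn gave 9 to 13 of 16 members lower, and 10 of 16 probe sets kept their direction throughout. With the replicates 4 of both diets left out as well, the others ranged from -0.434 to 0.848 (Cpt1a 1386946_at), -0.831 to 0.197 (Hadha 1394763_at), -0.255 to 0.763 (Hadhb), -0.157 to 0.775 (Acaa2 1380504_at), -0.232 to 0.765 (Acot2 1384115_at) and -0.851 to 0.231 (Acot2 1388210_at). In that added setting, 12 of 16 were lower and Hadhb differed by -0.0565. The Hadha and Hadhb correlation was 0.761 after median centring (exact permutation p = 0.0257) and 0.441 to 0.823 when an array was left out. After quantile normalization it was 0.143, but there a single array set apart from equal others fixed the values of each gene, so nothing is read from it. With the replicate block, 0 members were called and 11 of 16 were lower, as without it, and 1 rather than 4 had an unadjusted limma p under 0.05. Over all 31042 tested probe sets, 1728 rather than 1352 had such a p. Same-numbered arrays correlated between -0.0505 and 0.246 in their deviations, and 2 of 4 correlated best with their own number, so the numbers were not taken as pairs.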
